A study of Mus musculus with 6 samples.

Results

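The S100 calcium-binding genes described here are 10 genes listed by name: S100a8, S100a9, S100a7a, S100a1, S100a13, S100a14, S100a16, S100a3, S100a4 and S100a6. They were selected on the platform annotation as probe sets with 1 gene symbol, of which the one with the highest mean intensity was to be taken, and each of the 10 turned out to have only 1. They are 10 of the 19938 genes that have such a probe set. The list was chosen with results of the comparison of Aire knockout (KO) with Aire wild type (WT) already known. Levels, differences and calls of the 10 genes are therefore a description, given with no p-value, and nothing is read from their number.

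The cells were thymic medullary epithelial cells, sorted as CD45-negative, Ly51-intermediate and high in MHC class II. The arrays labelled Aire KO came from 3 mice and those labelled Aire WT from 3 mice, each taken individually at 4 to 6 weeks of age. Both groups had the (B6xNOD)F1 background, and the labels name no treatment and no other allele. RNA went through 2 rounds of amplification and was hybridised to arrays whose probe sets cover whole mouse transcripts. Values below are log2 of the deposited intensity. Differences are Aire KO minus Aire WT, and SE is that of a model fitted to all genes.

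Aire itself, a transcriptional regulator of these cells, had log2 intensities of 12.38, 12.41 and 12.42 on the Aire KO arrays, against 12.00, 11.92 and 11.99 on the Aire WT arrays. The probe set was thus brighter in Aire KO by 0.44 (SE 0.08, limma adjusted p = 0.00171). Since the deleted segment is not named in the labels, this probe set does not check the genotype, and the group names below are those of the labels. Among 13 markers of medullary epithelium all passed the filter on dim genes, and their summed intensity was 52111.4 to 54037.5 in Aire KO and 50986.3 to 51514.9 in Aire WT. Of these, 3 fell, 1 rose and 9 were not called. Krt5, a basal keratin, fell by 0.84 (SE 0.12, adjusted p = 0.000469), and Krt14, another basal keratin, fell by 0.44 (SE 0.11, adjusted p = 0.0122). Epcam, an epithelial adhesion molecule, fell by 0.37 (SE 0.10, adjusted p = 0.0205). Relb, a transcription factor needed for medullary epithelium, rose by 0.35 (SE 0.08, adjusted p = 0.00651).

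S100 proteins are small proteins with a pair of EF-hands, the helix-loop-helix motif that binds calcium. Most work as dimers that change shape when calcium binds and then grip a target protein, and some are also released and bind zinc or cell surface receptors. Most of their genes lie side by side on mouse chromosome 3, next to the genes that build the cornified envelope of skin. S100a8 and S100a9 pair into calprotectin, which withholds zinc and manganese from microbes, is abundant in neutrophils and is induced in stressed squamous epithelium. In the thymic medulla, epithelial cells transcribe many genes of other tissues, in part under the control of Aire, and some of them take on features of skin keratinocytes.

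Calprotectin's 2 genes were dimmer in Aire KO cells, as was S100a7a, while the neighbouring genes were brighter. S100a9 had log2 intensities of 6.53, 6.62 and 6.41 on the Aire KO arrays, against 9.13, 9.06 and 9.51 on the Aire WT arrays. The Aire KO values lay close above the filter for dim genes, 5.97, and the highest of them was 2.44 below the lowest Aire WT value. The difference was -2.71 (SE 0.12), a 6.55-fold lower intensity in Aire KO.

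S100a8 read 7.68, 7.42 and 7.32 on the Aire KO arrays, against 9.31, 9.35 and 9.59 on the Aire WT arrays. The groups were again apart, here by a gap of 1.63. The difference was -1.94 (SE 0.11), a 3.85-fold lower intensity in Aire KO. Background signal compresses the fold of a dim probe set, so the folds of S100a8 and S100a9 are not set against each other. These are bulk samples, in which fewer cells of a type and less RNA per cell cannot be told apart.

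The stretch around the start of both calprotectin genes is shown because they fell together, with capitals marking the TATAAA box and the C/EBP motif TTNNGNAA, which in S100a9 is matched on the opposite strand and so reads as its reverse complement. Both are from RefSeq's annotation of GRCm38.p6 and run from 140 bases before the annotated start to 20 after it. S100a8 lies at chr3:90668931-90669090 on the plus strand and S100a9 at chr3:90695702-90695861 on the minus strand.
S100a8: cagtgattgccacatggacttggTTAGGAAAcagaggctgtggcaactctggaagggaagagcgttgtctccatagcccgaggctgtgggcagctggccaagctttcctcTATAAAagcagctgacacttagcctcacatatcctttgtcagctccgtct
S100a9: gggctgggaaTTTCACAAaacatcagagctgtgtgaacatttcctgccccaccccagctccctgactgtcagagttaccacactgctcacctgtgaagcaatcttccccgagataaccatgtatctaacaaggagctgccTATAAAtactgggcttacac
In S100a8 the TATAAA begins at -30 from the start and the C/EBP match at -117. In S100a9 the TATAAA begins at the annotated start itself and the printed C/EBP match at -130. Over all 32851 promoter windows of 300 bases, searched on both strands, 13.6% held TATAAA, 40.7% held the C/EBP motif and 7.81% held the AP-1 motif TGANTCA. A C/EBP match is thus common, and a match is only a description of letters.

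S100a7a, the mouse relative of the skin protein psoriasin, moved less. Its values were 6.67, 6.90 and 6.78 on the Aire KO arrays and 7.23, 7.26 and 7.23 on the Aire WT arrays. The groups did not overlap, and the 3 Aire WT arrays had an SD of only 0.02. The difference was -0.46 (SE 0.09), a 1.37-fold lower intensity in Aire KO.

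The neighbouring genes S100a1, S100a13, S100a14, S100a16, S100a3, S100a4 and S100a6 were all brighter on the Aire KO arrays. S100a1, best known as a regulator of calcium cycling in heart and skeletal muscle, read 9.52, 9.40 and 9.36 on the Aire KO arrays, against 8.46, 8.63 and 8.86 on the Aire WT arrays. Its difference was 0.77 (SE 0.11), the largest of the neighbouring genes and 1.71-fold. The Aire WT arrays spread more than the Aire KO arrays but stayed below all of them.

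S100a13, which takes part in the release of growth factors that lack a signal peptide, read 9.09, 8.93 and 9.02 on the Aire KO arrays, against 8.30, 8.35 and 8.33 on the Aire WT arrays. Its difference was 0.68 (SE 0.08), or 1.61-fold. S100a1 and S100a13 are divergent genes, and the bases that separate their starts are shown because both genes rose on the same arrays. The stretch is chr3:90514295-90514454 on the plus strand of GRCm38.p6, from RefSeq, and the capitals are the 104 bases between the start of S100a1, transcribed to the left, and that of S100a13, transcribed to the right.
S100a13: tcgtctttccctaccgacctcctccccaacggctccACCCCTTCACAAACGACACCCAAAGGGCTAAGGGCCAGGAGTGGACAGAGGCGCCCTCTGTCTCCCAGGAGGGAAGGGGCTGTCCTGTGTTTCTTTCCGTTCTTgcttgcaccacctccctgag
None of the 3 motifs was found in the 300-base windows of S100a1 and S100a13. RefSeq gave 13 such windows for 9 of the 10 genes, some with several starts. Beside S100a8 and S100a9, TATAAA was found in a window of S100a4, where it begins at -31, and in one of the S100a3 windows, where it begins at -52. The C/EBP motif was also found in other S100a3 windows, beginning at -116 and at -198. The AP-1 motif was found in a window of S100a16, beginning at -192.

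S100a16, a broadly expressed family member, read 10.80, 10.47 and 10.77 on the Aire KO arrays, against 9.95, 10.13 and 9.93 on the Aire WT arrays. Its difference was 0.67 (SE 0.11), or 1.60-fold. S100a14, an epithelial protein whose human counterpart pairs with that of S100a16, read 11.53, 11.32 and 11.39 on the Aire KO arrays, against 10.97, 11.02 and 11.15 on the Aire WT arrays. Its difference was the smallest of the neighbouring genes, 0.37 (SE 0.09) or 1.29-fold. Without Aire KO replicate 1, the brightest array for this gene, it was 0.31 and no longer called.

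S100a3, a cysteine-rich protein of the hair cuticle, read 9.04, 8.99 and 9.07 on the Aire KO arrays and 8.45, 8.52 and 8.44 on the Aire WT arrays. Its difference was 0.56 (SE 0.08), or 1.48-fold. In both groups its arrays lay close together.

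S100a4, which binds nonmuscle myosin and is widely used as a marker of fibroblasts and other motile cells, read 8.30, 8.24 and 8.19 on the Aire KO arrays and 7.77, 7.81 and 7.65 on the Aire WT arrays. Its difference was 0.50 (SE 0.08), or 1.42-fold. Of 9 tested markers of fibroblasts and endothelium, 1 fell, 1 rose and 7 were not called. Over all tested genes 14.1% fell and 12.0% rose. The marker list summed to 2177.9 to 2671.4 in Aire KO and 1939.8 to 2228.4 in Aire WT. The collagen gene Col1a1 fell by 0.63 (SE 0.08, adjusted p = 0.000221) and the matrix proteoglycan gene Dcn rose by 0.75 (SE 0.15, adjusted p = 0.00397). The part of such cells in the S100a4 values was not tested.

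S100a6, or calcyclin, binds the calcyclin-binding protein and annexins. It read 9.86, 9.88 and 9.83 on the Aire KO arrays, against 8.89, 9.04 and 9.42 on the Aire WT arrays. Aire WT replicate 3 stood nearest to the Aire KO arrays, and the groups did not overlap. The difference was 0.74 (SE 0.12), or 1.67-fold, and 0.89 without that array. Cacybp, the calcyclin-binding protein's gene, had a difference of -0.29 (SE 0.12) and was not called (adjusted p = 0.107).

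**Figure D1:**
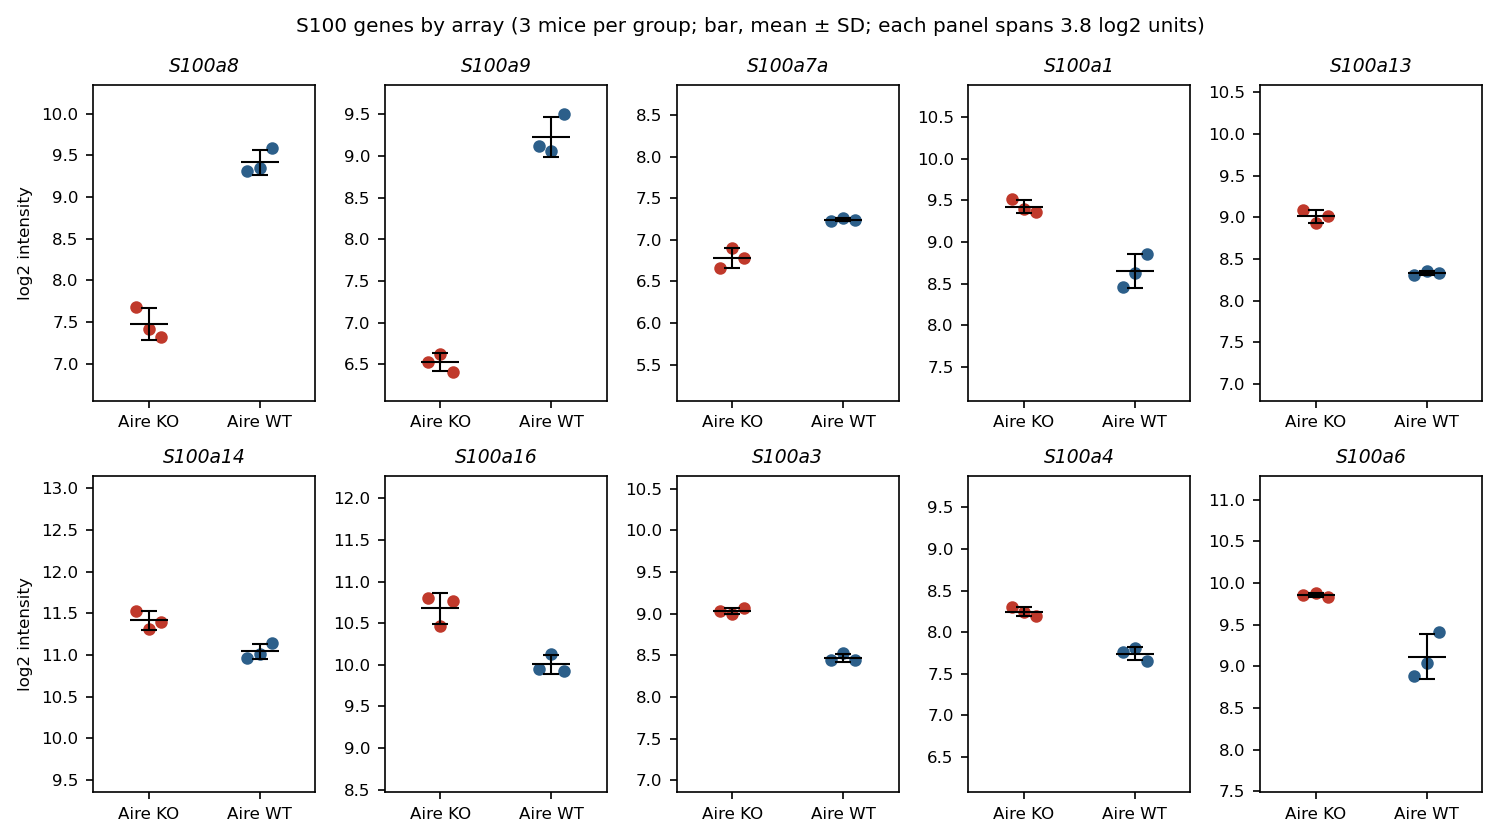
Log2 intensity of the 10 S100 genes on each array, with Aire KO on the left and Aire WT on the right of each panel; points are mice, bars are mean and SD of 3, and all panels span the same number of log2 units. S100a8, S100a9 and S100a7a are lower in Aire KO, the other 7 higher, and in no panel do the groups overlap.

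All 10 genes lay above the filter on all 6 arrays, so none was tested on the strength of 1 group alone. The model called 3 of the 10 lower in Aire KO, beside 14.1% of all 13925 genes tested, and 7 higher, beside 12.0% of them. The groups did not overlap for any of the 10, beside 20.5% of all tested genes with every Aire KO array lower and 22.0% with every Aire KO array higher. The median difference was -1.94 over S100a8, S100a9 and S100a7a and 0.67 over the 7 neighbouring genes, against 0.02 over all tested genes. The 7 neighbouring genes had differences from 0.37 to 0.77, a narrower range than the -2.71 to -0.46 of the other 3. On each array the median of the neighbouring genes, set against their Aire WT means, was 0.75, 0.52 and 0.69 for Aire KO and -0.05, 0.02 and -0.0003 for Aire WT. For S100a8, S100a9 and S100a7a the same medians were -1.73, -2.00 and -2.10 for Aire KO and -0.10, -0.07 and 0.17 for Aire WT. As medians of 3 genes, these and the -1.94 are the values of S100a8 itself.

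Within the run from S100a1 to S100a9 the direction changed at 1 place. In RefSeq's gene order, 12 tested genes run from S100a1 to S100a9, all of them S100 genes: S100a1, S100a13, S100a14, S100a16, S100a3, S100a2, S100a4, S100a5, S100a6, S100a7a, S100a8 and S100a9. Of these, 8 were called higher, 3 lower and 1, S100a5, was not called, and the switch falls between S100a6 and S100a7a. This count includes the 10 genes chosen with results known. RefSeq's models of S100a3 and S100a2 overlap, and S100a1 and S100a13 start close together on opposite strands. Whether the probe sets tell these pairs apart was not tested.

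The genes on either side of the run were counted in the same way. Of the 10 tested genes before S100a1, 9 were not called and 1, Snapin, a protein of vesicle docking, rose by 0.48 (adjusted p = 0.0019). Their median difference was -0.05. All 10 tested genes after S100a9 fell, with a median difference of -0.69, but 1 of them, Lce1c, passed the filter on the Aire WT arrays alone. They are Pglyrp4, a bactericidal peptidoglycan recognition protein, and 9 genes of the cornified envelope, namely Lor, Ivl, Sprr2d, Sprr1b, Sprr3, Sprr1a, Sprr4, Lce1c and Lce1h. Sprr3, a small proline-rich envelope protein, fell by 1.62, Ivl, the gene of involucrin, fell by 0.91 and Lor, the gene of loricrin, fell by 0.58. The Aire KO means of Ivl, 5.90, and Pglyrp4, 5.96, lay under the filter value.

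Farther along the same chromosome lie S100a11 and S100a10, adjacent among tested genes. Of the 10 tested genes before them, 6 fell and 4 were not called. Of the 10 after them, 4 fell and 6 were not called. Before them Tchh fell by 1.06 and Rptn fell by 1.02, while the differences of the 4 genes not called were -0.14 for Lce1j, 0.22 for Lce1k, 0.24 for Crnn and 0.08 for Tchhl1. After them Tdpoz2 fell by 1.37 and Them5 fell by 1.23. Them5 and Spopfm2, another of the 4, passed the filter on the Aire WT arrays alone. Lce1c and Lce1h belong to this stretch and to the stretch after S100a9, and were counted in both.

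**Figure D2:**
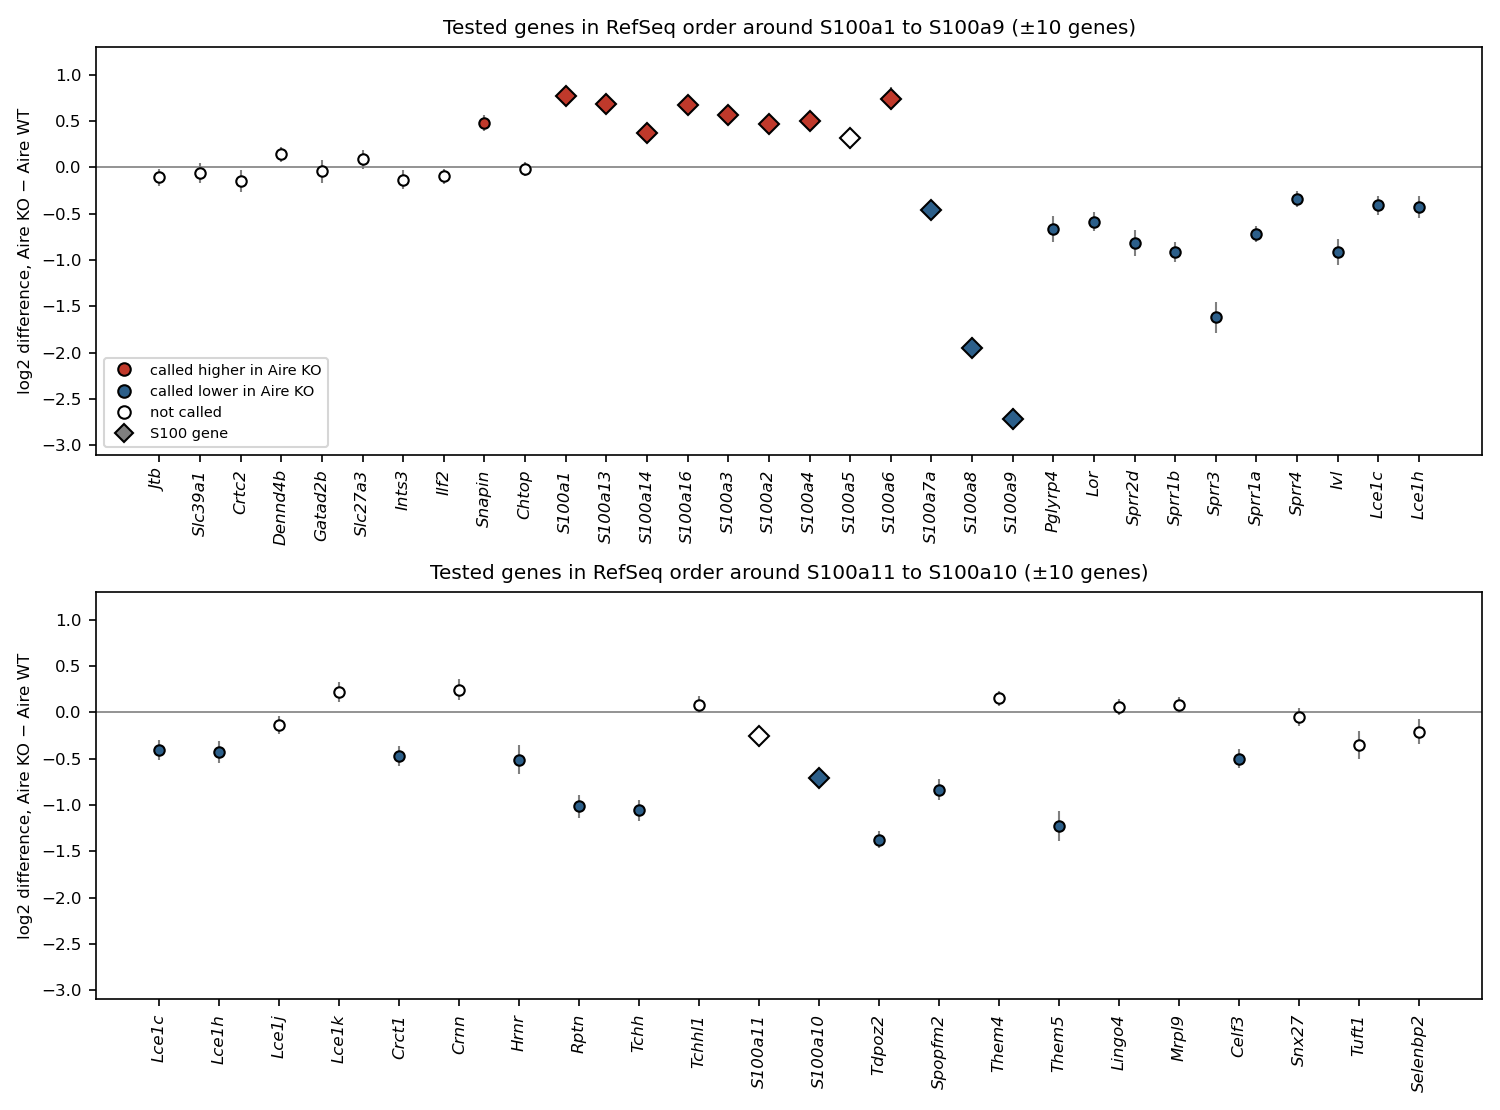
Difference in log2 intensity, Aire KO minus Aire WT, of tested genes in RefSeq's order around S100a1 to S100a9 (top) and around S100a11 and S100a10 (bottom), with 10 tested genes on each side; error bars are SE, diamonds S100 genes, filled symbols called genes. The S100 genes up to S100a6 lie above 0, and those from S100a7a on, with the 10 genes after S100a9, lie below it. S100a11 is shown by its brighter probe set, which may not read the gene at this place.

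The family has further members outside the 10. Of 10 other listed genes 8 had a probe set with 1 symbol and 7 were tested, of which 1 fell, 2 rose and 4 were not called. S100g, the small vitamin D-dependent calcium buffer of gut epithelium, read 10.15, 10.08 and 10.18 on the Aire KO arrays, against 9.38, 9.45 and 9.39 on the Aire WT arrays. The groups were far apart for their spread, and S100g rose by 0.73 (SE 0.08, adjusted p = 4.53e-05).

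S100a2, a keratinocyte gene in human skin, read 7.37, 7.46 and 7.37 on the Aire KO arrays, against 6.93, 6.97 and 6.89 on the Aire WT arrays. It rose by 0.47 (SE 0.08, adjusted p = 0.00112) with no overlap. S100a10, which does not need calcium to hold its shape and pairs with the product of Anxa2, read 9.58, 9.55 and 9.73 on the Aire KO arrays, against 10.23, 10.32 and 10.42 on the Aire WT arrays. It fell by 0.70 (SE 0.09, adjusted p = 0.000158), also with no overlap.

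S100a11, a partner of the Anxa1 product, read 11.37, 11.47 and 11.28 on the Aire KO arrays, against 11.55, 11.46 and 11.88 on the Aire WT arrays. The groups overlapped, the difference was -0.26 (SE 0.11), and it was not called (adjusted p = 0.109). This value is from the brighter probe set annotated as S100a11, and a second one gave -0.30. By number the second one falls between the probe sets of Tchhl1 and S100a10, and the one used does not. Whether the probe set used reads the gene beside S100a10 was not tested. A near-identical copy of the gene could share its signal, so the value is uncertain. S100a5, known from olfactory neurons, had a difference of 0.32 (SE 0.11, adjusted p = 0.0611) and S100z one of 0.27 (SE 0.10, adjusted p = 0.0544). Without Aire KO replicate 2 both were called higher, with adjusted p = 0.0202 for S100a5 and 0.0157 for S100z. S100pbp, which encodes a binding protein of the family and no EF-hand protein, had a difference of -0.13 (SE 0.14, adjusted p = 0.517). S100b, a glial gene, lay under the filter on all arrays and was not tested.

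Several annexins and other targets of S100 proteins fell, among them the annexin partner of S100a10. Of 8 tested genes of this list, 5 fell, none rose and 3 were not called, with a median difference of -0.32. Anxa1 read 9.65, 10.09 and 10.27 on the Aire KO arrays, against 11.18, 11.15 and 11.13 on the Aire WT arrays. The Aire WT arrays lay close together, the Aire KO arrays were spread, and Anxa1 fell by 1.15 (SE 0.13, adjusted p = 8.59e-05).

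Anxa2 read 9.55, 9.84 and 9.94 on the Aire KO arrays, against 10.35, 10.43 and 10.36 on the Aire WT arrays. It fell by 0.60 (SE 0.10, adjusted p = 0.00144). The actin-binding tropomyosin gene Tpm1 fell by 0.67 (SE 0.11, adjusted p = 0.000778) and the annexin gene Anxa6 fell by 0.36 (SE 0.08, adjusted p = 0.00788). Aire KO replicate 1 was the lowest array for Anxa1 and Anxa2. Without it 4 of the 8 were called lower, and also 4 without Aire KO replicate 3 or without Aire WT replicate 1.

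**Figure D3:**
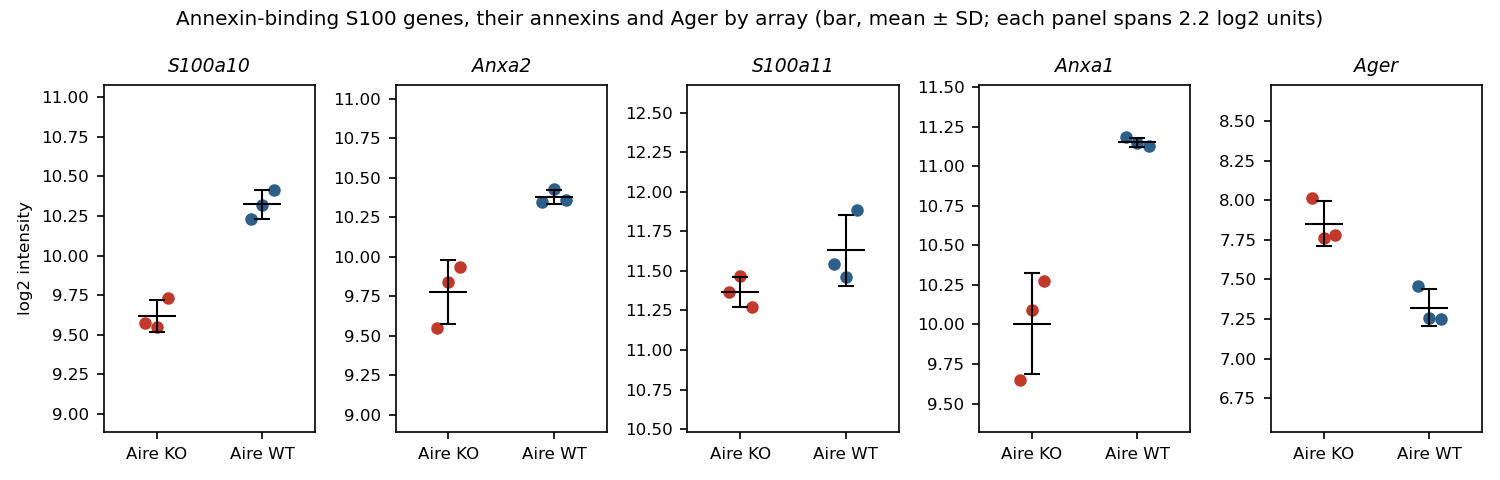
Log2 intensity of S100a10 and Anxa2, S100a11 and Anxa1, and the receptor gene Ager on each array, Aire KO left and Aire WT right; points are mice, bars are mean and SD of 3, and all panels span the same number of log2 units. S100a10, Anxa2 and Anxa1 are lower in Aire KO, Ager is higher, and the S100a11 groups overlap.

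Receptors and signalling partners of released S100 proteins were counted in the same way. Of 8 tested genes, 2 fell, 1 rose and 5 were not called, where 14.1% of all tested genes fell and 12.0% rose. Nothing is read from counts this small. The median difference of the 8 was -0.06. The median was -0.13 without Aire WT replicate 2, -0.04 without Aire WT replicate 3 and -0.03 without Aire KO replicate 2, with the same counts. Ager encodes RAGE, a receptor that binds several S100 proteins. It read 8.02, 7.76 and 7.78 on the Aire KO arrays, against 7.46, 7.26 and 7.25 on the Aire WT arrays, and rose by 0.53 (SE 0.10, adjusted p = 0.00227). Cd14, a co-receptor of Tlr4, fell by 0.84 (SE 0.14, adjusted p = 0.00133). Cd69, an activation marker of lymphocytes, fell by 0.52 (SE 0.12, adjusted p = 0.00688), but passed the filter on the Aire WT arrays alone. Tlr4, a receptor for calprotectin, and the scavenger receptor gene Cd36 lay under the filter on all arrays.

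The fused-type genes encode large epidermal proteins with an S100 domain at one end. Of 5 tested, 3 fell and 2 were not called, with a median difference of -0.51. Tchh, the gene of trichohyalin of the hair follicle, fell by 1.06 (SE 0.11, adjusted p = 4.09e-05) and Rptn, the gene of repetin, fell by 1.02 (SE 0.12, adjusted p = 0.000105). Hrnr, the gene of hornerin, fell by 0.51 (SE 0.16, adjusted p = 0.0382). Without Aire KO replicate 1, which was lowest for all 3, the list had 2 called lower and a median of -0.30. The list also had 2 called lower without Aire KO replicate 2, without Aire WT replicate 2 and without Aire WT replicate 3. Without Aire WT replicate 3, and also with array weights, 1 gene of the list was called higher. Of 9 tested EF-hand genes outside the family, 4 fell and 5 were not called, with a median of -0.27, or -0.17 without Aire KO replicate 2. Calb2, the gene of the neuronal calcium buffer calretinin, fell by 3.17 (SE 0.12, adjusted p = 1.2e-08), and passed the filter on the Aire WT arrays alone. Calb1, the gene of another calcium buffer, fell by 0.80 (SE 0.11, adjusted p = 0.000345), the calmodulin gene Calm2 fell by 0.51 (SE 0.11, adjusted p = 0.0064) and the neuronal calcium sensor gene Hpca fell by 0.44 (SE 0.12, adjusted p = 0.0173).

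Antimicrobial genes of epithelia were lower in Aire KO cells together with S100a8 and S100a9. Of 14 tested, 12 fell, none rose and 2 were not called, with a median difference of -0.72, and 3 more were too dim to test. The defensin gene Defb3 had log2 intensities of 6.04, 5.96 and 6.03 on the Aire KO arrays, against 7.81, 7.88 and 7.89 on the Aire WT arrays. The Aire KO arrays lay at the filter, and Defb3 fell by 1.85 (SE 0.08, adjusted p = 3.88e-08). Ltf, the gene of the iron-binding protein lactoferrin, fell by 1.66 (SE 0.10, adjusted p = 6.75e-07). Its Aire KO values of 5.86, 5.79 and 6.08 also lay at the filter. Lyz1, a lysozyme gene of gut Paneth cells, fell by 1.17 (SE 0.09, adjusted p = 2.17e-06), and Reg3g, a bactericidal lectin of the gut, fell by 1.13 (SE 0.09, adjusted p = 5.53e-06). Lyz2, the lysozyme gene of myeloid cells, had a difference of -0.06 (SE 0.08, adjusted p = 0.59), and Camp, the gene of a cathelicidin peptide, one of -0.22 (SE 0.11, adjusted p = 0.178).

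Genes that mark neutrophils, the main carriers of calprotectin in blood, also differed. Of 19 with a probe set, 10 were tested, of which 8 fell and 2 were not called, and 9 were too dim. The whole list summed to 1504.1 to 1568.2 in Aire KO and 2841.7 to 3105.9 in Aire WT, so the groups did not overlap. Ly6g, a surface antigen of neutrophils, read 5.46, 5.05 and 4.56 on the Aire KO arrays, against 9.03, 8.82 and 8.93 on the Aire WT arrays, and fell by 3.90 (SE 0.18, adjusted p = 6.16e-08). Mpo, the gene of a granule peroxidase, fell by 1.80 (SE 0.12, adjusted p = 1.32e-06) and Ngp, a granule protein gene, fell by 1.41 (SE 0.10, adjusted p = 1.44e-06). Ly6g, Ngp and Itgam passed the filter on the Aire WT arrays alone, and the Aire KO mean of Mpo, 6.08, lay close above it.

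Other defining neutrophil genes were under the filter on every array of both groups: Elane, Ctsg, Csf3r, Cxcr2, Retnlg, Mmp8, Stfa2 and Padi4. Csf3r, the gene of the receptor that neutrophils need to mature, read 4.99 to 5.26 on the Aire KO arrays and 4.72 to 5.09 on the Aire WT arrays. Retnlg, a neutrophil resistin-like gene, read 4.36, 4.42 and 4.40 on the Aire KO arrays and 4.20, 4.33 and 4.09 on the Aire WT arrays. Ltf, Lcn2 and Camp stand in this list and in the antimicrobial list, so the lists are not independent.

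**Figure D4:**
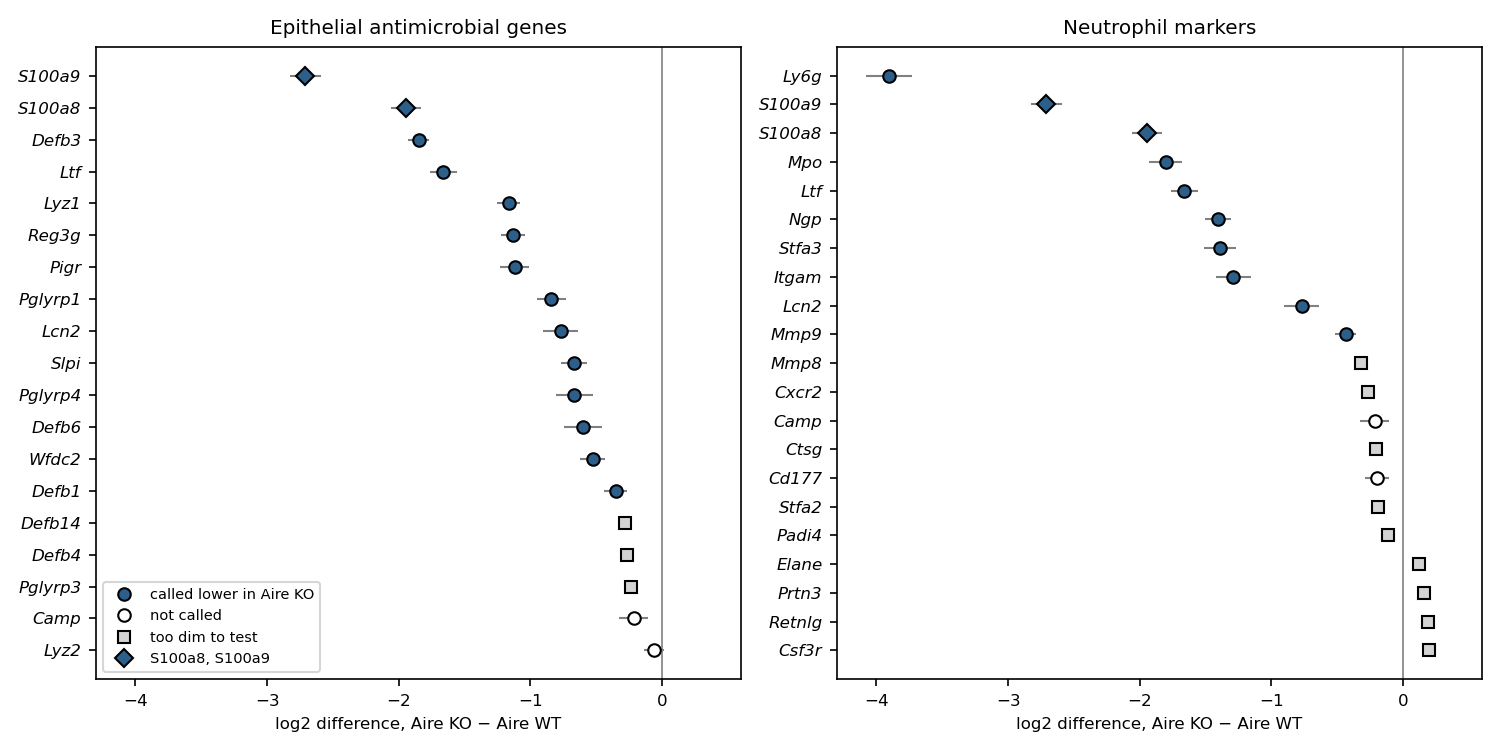
Difference in log2 intensity, Aire KO minus Aire WT, of epithelial antimicrobial genes (left) and neutrophil markers (right), with S100a8 and S100a9 as diamonds in both; error bars are SE, filled blue symbols were called lower, white ones were not called, and grey squares were too dim to test. In the right panel Ly6g, Mpo and Ltf show the largest falls beside S100a8 and S100a9, while Csf3r, Retnlg, Elane and Prtn3 lie at or above 0.

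Markers of keratinocyte differentiation, the programme in which squamous epithelium uses many S100 genes, mostly fell, as S100a8 and S100a9 did. Of 22 tested, 16 fell, 1 rose and 5 were not called, with a median difference of -0.77, and their list summed to 7497.0 to 8108.9 in Aire KO and 12747.0 to 13661.7 in Aire WT. The suprabasal keratin gene Krt1 fell by 2.67 (SE 0.15, adjusted p = 2.93e-07) and the keratin gene Krt77 fell by 1.92 (SE 0.12, adjusted p = 5.41e-07). The protease gene Klk5 fell by 2.25 (SE 0.12, adjusted p = 2.41e-07), though it passed the filter on the Aire WT arrays alone, and its relative Klk7 fell by 1.54 (SE 0.09, adjusted p = 2.93e-07). The gene that rose was Grhl3, by 0.32 (SE 0.08, adjusted p = 0.0164), and Calml3, Tgm1, Tgm3, Asprv1 and Cdsn were not called. Sprr3, Ivl and others of the stretch after S100a9 belong to this list. The part of these cells in the S100 values was not tested.

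Markers of other cells moved less evenly. Of 8 tested monocyte and macrophage genes, 4 fell, 2 rose and 2 were not called, and their list summed to 4943.4 to 5266.5 in Aire KO and 4549.8 to 5195.8 in Aire WT. Adgre1, the macrophage antigen used to sort macrophages, fell by 1.58 (SE 0.08, adjusted p = 2.26e-07), and Csf1r, the receptor gene of macrophage survival, fell by 0.54 (SE 0.09, adjusted p = 0.00106). Cybb rose by 0.55 (SE 0.12, adjusted p = 0.00682) and Cd68 rose by 0.32 (SE 0.11, adjusted p = 0.0497), while Lyz2 and Fcgr3 were not called. Adgre1 and Itgam, which is also in this list, passed the filter on the Aire WT arrays alone. Of 6 dendritic cell genes, 1 fell, 1 rose and 4 were not called, with sums of 2163.8 to 2373.6 in Aire KO and 2127.1 to 2274.0 in Aire WT. Of 3 B cell genes, all rose, led by Pax5 with 0.31 (SE 0.09, adjusted p = 0.0326), and sums were 2296.6 to 2474.0 in Aire KO and 2046.7 to 2099.0 in Aire WT, while Cd79a, Ms4a1 and Cd22 were too dim.

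Of 7 T cell genes, 2 fell and 5 were not called, with sums of 763.8 to 1072.0 in Aire KO and 1059.7 to 1829.2 in Aire WT. Among those that fell was Ptprc, the gene of CD45, the leukocyte antigen that the sorted cells were selected to lack. Ptprc had a difference of -0.62 (SE 0.17, adjusted p = 0.0218), and the groups did not overlap. Which leukocytes carried this signal was not tested. Aire WT replicate 3 held the highest sum, and its Cd3g, a chain of the T cell receptor complex, read 9.32 against 8.18 and 8.04 on the other Aire WT arrays. Without that array 1 of the 7 was called lower, and without Aire KO replicate 3 also 1. The same array was the brightest Aire WT array for S100a8, S100a9, S100a1, S100a14 and S100a6. Without it S100a8 had a difference of -1.86 and S100a9 one of -2.57. Of 7 cortical epithelium genes, 1 fell, 3 rose and 3 were not called, with sums of 8655.1 to 9054.8 in Aire KO and 7355.0 to 8273.0 in Aire WT. Ctsl, a lysosomal protease of cortical epithelium, fell by 0.72 (SE 0.10, adjusted p = 0.000398), and Tbata, a thymic stromal gene, rose by 0.50 (SE 0.08, adjusted p = 0.000792).

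Across the 6 arrays the tested genes most like S100a8, by Pearson correlation of log2 intensity, were Actc1 (0.9996), Efcab3 (0.9986), Gstm3 (0.9984), Mmp9 (0.9983) and Calcr (0.9975). Those most like S100a9 were Krt84 and Fmo2 (both 0.9994), Cxcl9 (0.9992), and Myh3 and Ido1 (both 0.9988). The Aire KO means of Efcab3 (4.86), Calcr (5.71), Fmo2 (5.96), Myh3 (5.85) and Ido1 (5.70) lay under the filter value of 5.97. S100a8 and S100a9 had a correlation of 0.994 with each other. The 6 arrays form 2 separate groups for all these genes, so the values mostly restate that each gene was lower on all 3 Aire KO arrays. They are a description, given with no p-value.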

How the data were processed

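RNA of sorted medullary epithelial cells was measured on 6 arrays, 1 per mouse. The authors deposited probe set intensity values on a linear scale, which the submitters' processing notes credit to RMA. That method corrects background, gives the arrays a common distribution and combines the probes of a set, which hides changes in total RNA per cell and compresses folds of dim genes. Array medians were 92.9 to 98.2. For its version and the genome build, the sources used here give nothing, and no detection call or batch was available to the tests.

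Values were log2 transformed (pseudocount 0). Of 35512 probe sets, 21789 have 1 symbol, 1621 several and 12102 none, and 21698 of the first matched RefSeq (GRCm38.p6) by gene identifier. A gene took its probe set of highest mean, and was tested if above the 40th percentile of all values (log2 5.97) on at least 3 arrays, which left 13925 genes and set 6013 aside. Groups were compared with the two-sided moderated test of limma 3.58.1 (R 4.3.3) with Benjamini-Hochberg adjustment over all 13925 genes and a threshold of 0.05, and "called", "rose" and "fell" refer to it. SDs are over 3 mice. The test was checked on simulated data. The number of arrays limits the precision.

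The S100 genes, all lists and the named-gene rule were chosen with earlier results of these data known: all S100 genes, up to 4 called members of each list by adjusted p, called neighbours, and the 5 genes most correlated with S100a8 and S100a9. Other named genes were chosen after their values were seen. No list was tested as a set, and the counts of every list stand beside 14.1% of all tested genes lower and 12.0% higher. Gene order, starts and promoter windows come from RefSeq. Plots were drawn with matplotlib 3.10.9. Alternatives covered filter, normalization, offset, probe set rule, variance model, array weights, replicate number, a minimum change and each array left out.

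Replicate numbers gave no sign of pairing: deviations from the group means of same-numbered arrays correlated at -0.02, -0.21 and -0.06. Other pairs of arrays correlated at -0.10 to 0.15. Whether mice of the same number shared a litter or a batch cannot be told from these values.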

Additional observations from a re-analysis of the deposited data

How the results depend on the processing

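All 10 S100 genes kept their direction under all 17 alternatives, 6 of which left out 1 array. Calls stayed at 3 lower and 7 higher except in these cases. Under limma's treat, which asks whether a change exceeds 0.5 on the log2 scale, 2 genes, S100a8 and S100a9, stayed called lower and 0 higher; over all genes it called 338 lower and 118 higher, and of the other S100 family genes 0 lower and 0 higher. The same setting called lower 2 fused-type, 1 annexin-list, 5 antimicrobial, 1 EF-hand, 0 receptor, 6 neutrophil and 8 keratinocyte genes. With the filter at the 60th percentile, 0 of 4 tested receptor genes were called lower, 9 of 10 antimicrobial and 6 of 6 neutrophil ones. Without Aire KO replicate 1, S100a14 had a difference of 0.31 and was not called. Leaving out 1 array gave 1364 to 1877 genes lower and 1052 to 1547 higher, the lowest rise count without Aire KO replicate 1, and 2 to 4 other S100 family genes higher. With array weights 4 other S100 family genes were called higher. With an offset of 32 added before the log, the median of S100a8, S100a9 and S100a7a was -1.77, which is the value of S100a8. The replicate block was tried although the numbers gave no sign of pairing. With it the same model gave 3 S100 genes lower and 7 higher. Over all genes it gave 1742 lower and 1368 higher, and of the other family genes 1 lower and 3 higher. The median difference of all genes stayed between -0.0023 and 0.0397 under these settings. With 3 arrays a group and no detection call, how far background compresses the differences of genes near the filter, such as S100a9 in Aire KO, is unknown.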
